A study of Mus musculus with 8 samples.

Results

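Genes that mark the exocrine and endocrine pancreas were followed across liver arrays of newborn mice. The set held 35 genes, 28 of acinar cells and 7 of islets, chosen by gene name. All but Prss3 had a probe of their own name, so 34 genes were measured (27 acinar, 7 islet) among 34741 gene names on the array. Of these, 23 (20 acinar, 3 islet) stood well above background on 4 or more arrays and entered the comparison, which covered 23526 genes in all. A further 8 reached that level on 1 to 3 arrays only, and 3 (Pnlip, Ptf1a and Pdx1) on none.

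The knockout mice had a maternally inherited loss of the miR-379/miR-410 cluster of microRNA genes and were set against wild-type littermates, all on a C57BL/6J background. Pups were taken by caesarean at E19.5, and liver from the large lobe was collected 4 h afterwards. Each genotype was represented by 4 arrays, named here by genotype and replicate number. The labels name no Cre driver and no pooling of animals, and the limits of the deletion are not given in the sources used here. As a check of the labels, Mirg, a noncoding transcript of the cluster's locus, was 495.4, 459.4, 304.9 and 345.4 in knockout 1 to 4, against 2470, 2699, 2536 and 2515 in wild-type 1 to 4 (difference -2.70 log2, SE 0.15, limma adjusted p = 0.000326). Whether its probes lie inside the deleted stretch is not known here.

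The acinar cells of the pancreas make digestive enzymes, most of them as inactive zymogens, and secrete them into the gut through the pancreatic duct. Islet cells release hormones into the blood instead, among them insulin, glucagon and somatostatin. In development both arise beside the liver from the foregut, and the pancreas lies close to it in the abdomen. Hepatocytes themselves are not a main source of most of these enzymes or hormones.

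The 8 arrays shared 1 slide and 1 scan. Knockout arrays filled 1 column of the slide and wild-type arrays the other, so the column cannot be told apart from genotype. The share of non-control spots well above background was 58.6% to 66.2% per array, and no spot was saturated. All 10 hepatocyte markers were detected, and their summed signal ran from 3253000 to 3349000 on knockout arrays and from 2993000 to 3576000 on wild-type arrays. Summed over the acinar members the signal ran from 42170 to 48760 on knockout arrays and from 27450 to 141200 on wild-type arrays. Such sums weigh bright probes most, and Spink3 was 27750 to 39010 on knockout arrays. The lowest sum was that of wild-type 1, where Spink3 was 7125, against 29820 to 30740 on the other wild-type arrays. For the islet members the summed signal ran from 120.3 to 283.9 on knockout arrays and from 116 to 2476 on wild-type arrays. Signals are the scanner's processed signal after scaling every array to a common 75th percentile, and results compare them between arrays. The sums add signals of different probes. Where probes are called bright or dim, this refers to signal and is not read as an amount of transcript. In whole liver, fewer cells of a type and less RNA per cell cannot be told apart.

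Replicate 4 of each genotype lay close to a mixture of other arrays of its genotype. For knockout 4 the best weights, fitted over 23433 genes outside the lists described here, were 0.35 for knockout 2 and 0.651 for knockout 3, with a median absolute error of 0.0733 log2. For wild-type 4 they were 0.425 for wild-type 2, 0.503 for wild-type 3 and 0.069 for wild-type 1, with an error of 0.0823 log2. The same weights gave the 20 acinar members an error of 0.0758 log2 in knockout 4 and of 0.134 log2 in wild-type 4. When the other arrays were fitted the same way, the error over all these genes was 0.0977 to 0.133 log2 on knockout arrays and 0.11 to 0.213 log2 on wild-type arrays, and the acinar members were missed by 0.184 to 0.306 log2 on knockout arrays and by 1.45 to 2.56 log2 on wild-type arrays, among which wild-type 3 was the extreme array for most of them. Results are therefore also given without replicate 4, and wild-type 4 may not be independent of wild-type 3.

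Several members have near-identical relatives, so the probes that carry the trypsinogen results are shown first. All probes were 60 bases long, and 30-base stretches are printed. Coordinates are mm9, from the array files. The whole Try4 and Try5 probes align over 45 bases, of which 43 are identical. The stretches shown lie at chr6:41255472-41255501 (plus strand) for Try4 and chr6:41261262-41261291 (minus strand) for Try5. Capitals mark the base that differs within the stretch shown, counted from 1 at its 5′ end, with the Try4 base first (T7C).
Try4: cattgcTgcaaactaagcatccctttgaag
Try5: cattgcCgcaaactaagcatccctttgaag
The array's own annotation lists a Try5 transcript for the Try4 probe, so the 2 genes' signals may not be separable.

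A second stretch is shared by Prss1 and Prss2, and the Cela2a probe aligned to it is shown for contrast. The Prss1 stretch lies at chr6:41412639-41412668 and the Prss2 stretch at chr6:41473959-41473988, both on the plus strand. The Cela2a probe spans chr4:141377348-141377647 on the minus strand. Capitals mark bases that differ from the Prss1 line.
Prss1: gaccctgaacaatgacatcatgttgatcaa
Prss2: gaccctgGacaatgacatcatgCtgatcaa
Cela2a: CGGcAATGGcTatgacatTGCCttAatcaa
Of 30 bases, 28 matched between Prss2 and Prss1, and 16 matched between Cela2a and Prss1. The stretch is the best match, and over whole probes Prss2 and this Prss1 probe align over 49 bases, of which 36 are identical. The Prss1 probe shown also lists a transcript of Gm10334, a neighbouring trypsinogen gene. The other Prss1 probe lists Prss1 alone and is the one used below. Its best alignment to the Prss2 probe covers 21 bases, of which 10 are identical. Of the 40 member probes, 3 list more than 1 gene (Try4, the Prss1 probe shown and the dimmer Amy2a5 probe, which also lists Amy1). Signals of closely related trypsinogens are therefore uncertain for any 1 gene.

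Detection differed between arrays. Of the 27 acinar genes, 20, 19, 19 and 20 were well above background in knockout 1 to 4, against 23, 16, 25 and 25 in wild-type 1 to 4. Of the 7 islet genes it was 2, 3, 2 and 3 in knockout 1 to 4, against 4, 1, 6 and 6 in wild-type 1 to 4. Wild-type 3 and 4 thus had the most members detected and wild-type 2 the fewest. The share of all non-control spots well above background ranked these arrays alike. It was 61.8%, 60.7%, 61.0% and 62.8% in knockout 1 to 4, against 60.8%, 58.6%, 62.9% and 66.2% in wild-type 1 to 4. Part of the difference in detection was therefore shared by the arrays as a whole.

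The same pair of arrays led in signal. Wild-type 3 was the highest and wild-type 4 the second highest of the 8 arrays for 24 of the 34 members with a probe. Among those that entered the comparison it was 16 of 23, against 2.75% of all genes. The order wild-type 3, wild-type 4, wild-type 1 held for 11 of the 23, against 0.485% of all genes. The range over arrays passed 2 log2 for 17 of the 23, against 2.44%. Wild-type 3 exceeded the highest knockout array by more than 2-fold for 15 of the 23, against 0.421%. The members and this pair of arrays were chosen with earlier results known, so these counts are a description and no test. Wild-type 4 may also not be independent of wild-type 3. The heat map of members by array shows both columns.

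**Figure D1:**
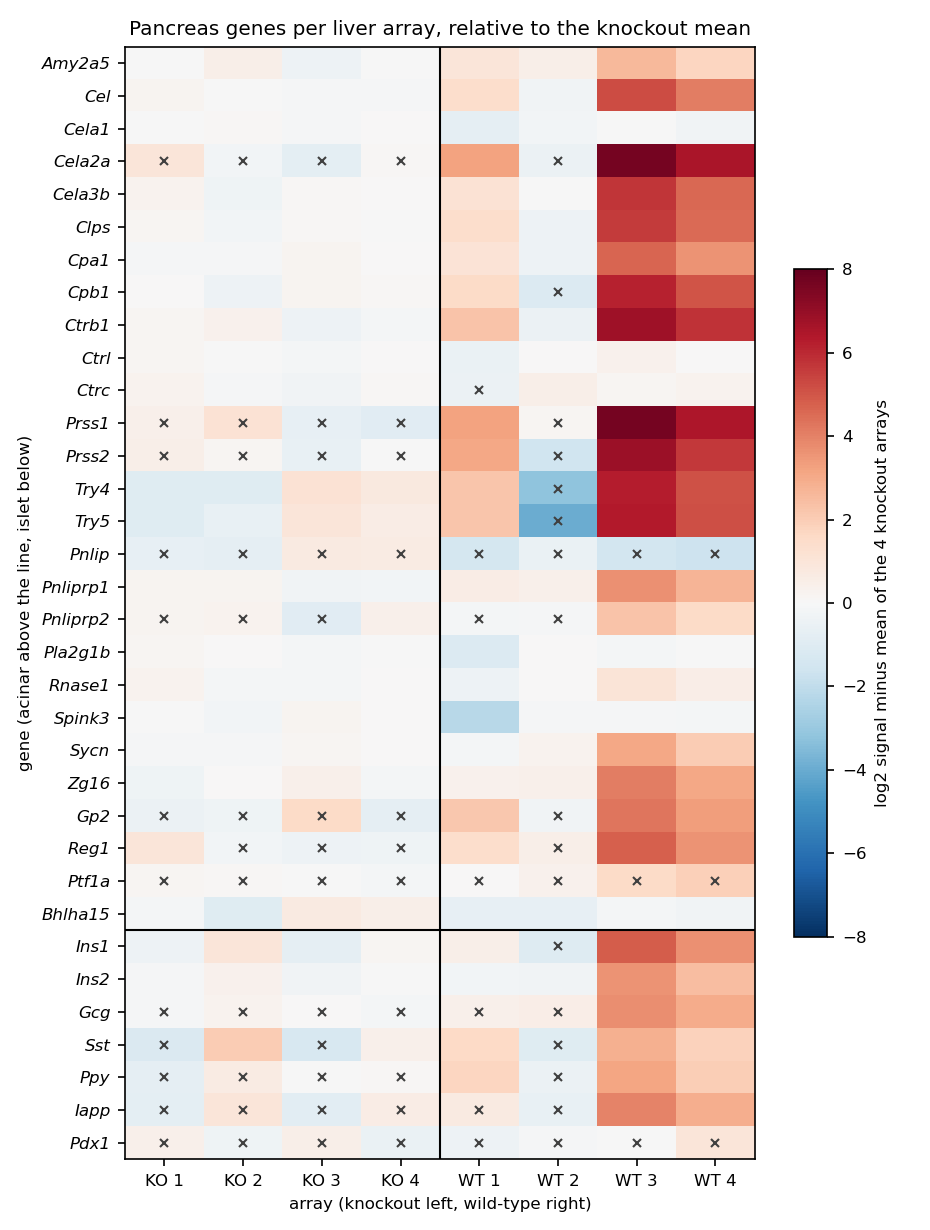
Each row is a member and each column an array, with knockout arrays left of wild-type arrays, and colour gives the log2 signal minus the mean of the 4 knockout arrays. A cross marks a value not well above background. The columns of wild-type 3 and wild-type 4 stand out over most rows of both lists, while, among the members in the comparison, Cela1, Ctrl, Ctrc, Spink3, Bhlha15 and the uncertain Pla2g1b probe do not follow them.

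The trypsinogens, whose products are activated in the gut to trypsin, were highest in wild-type 3 and 4. Prss1 was 8.27, 13.8, 4.06 and 3.35 in knockout 1 to 4, against 59.3, 7.11, 1240 and 555 in wild-type 1 to 4. The 4 knockout arrays and wild-type 2 were not well above background. Wild-type 3 was at least 111-fold and wild-type 4 at least 49.6-fold above the knockout mean, a mean of log2 values that takes for each knockout array the higher of its lowest signal well above background and the probe's own signal. The Prss1 probe shown above was well above background in wild-type 3 and 4 alone, at 388.4 and 193.9. In wild-type 1 that probe was 13.2, against 8.16 to 15.7 on knockout arrays. Prss2 was 14.3, 11.5, 6.86 and 9.83 in knockout 1 to 4, against 88.4, 3.35, 1190 and 515 in wild-type 1 to 4. For Prss2, too, the knockout arrays and wild-type 2 were not well above background.

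Try5 was detected in all knockout arrays. Its signal was 32.5, 43.1, 127.5 and 96.1 in knockout 1 to 4, against 298.8, 5291 and 2315 in wild-type 1, 3 and 4 and 4.09 (not well above background) in wild-type 2. Wild-type 2 thus lay below every knockout array, and the groups overlapped. Try4 gave 18.3, 18.2, 80.1 and 61.9 in knockout 1 to 4, against 170.1, 3.80 (not well above background), 2773 and 1203 in wild-type 1 to 4. Knockout 3 and 4 were the higher knockout arrays for both, as they were for Bhlha15 below. The trypsinogen Gm10334, outside the members, has a probe that lists a Prss3 transcript, and its signal was 40.8, 35.4, 24.7 and 20.4 in knockout 1 to 4, against 105.6, 15.6, 2934 and 1296 in wild-type 1 to 4. Wild-type 3, 4 and 1 were again the highest.

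Ctrb1, a chymotrypsinogen, showed the widest spread of the members well above background on all 8 arrays. It was 169.3, 197.3, 116.6 and 137.7 in knockout 1 to 4, against 728, 109.7, 16770 and 8219 in wild-type 1 to 4. Wild-type 3 stood 110-fold and wild-type 4 54-fold above the knockout mean, and wild-type 2 lay below it. The limma difference was -3.58 log2 (SE 1.41, adjusted p = 0.330).

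Ctrl and Ctrc, other chymotrypsin-like enzymes, did not follow this pattern. Ctrl was 129.4, 116, 107.5 and 119.7 in knockout 1 to 4, against 82.2, 118.4, 147.5 and 119.3 in wild-type 1 to 4. Ctrc ran from 15.6 to 23.2 on knockout arrays and from 13.7 to 26.3 on wild-type arrays.

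The elastases split. Cela2a was 9.65, 4.21, 2.86 and 5.31 in knockout 1 to 4, against 47.0, 3.55, 1001 and 453.7 in wild-type 1 to 4, with the knockout arrays and wild-type 2 not well above background. Cela3b was 60.0, 39.7, 52.7 and 51.1 in knockout 1 to 4, against 114.5, 48.6, 2698 and 1207 in wild-type 1 to 4. Cela1 did not follow them. It was 1828, 1993, 1782 and 1880 in knockout 1 to 4, against 1134, 1604, 1814 and 1535 in wild-type 1 to 4, with wild-type 1 the lowest. Its difference of 0.32 log2 (SE 0.14, limma adjusted p = 0.368) was the only one in that direction at an unadjusted p under 0.05.

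The carboxypeptidases, which trim residues from the ends of peptides, were high on the same arrays as the trypsinogens. Cpa1 was 169.4, 168.2, 206.1 and 182.2 in knockout 1 to 4, against 378.3, 137.6, 4572 and 2169 in wild-type 1 to 4. Cpb1 was 30.1, 21.6, 34.3 and 31.5 in knockout 1 to 4, against 84.0, 13.5 (not well above background), 2044 and 952 in wild-type 1 to 4. Both were lower in wild-type 2 than on any knockout array.

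Amy2a5, the pancreatic amylase, is one of 2 members in the comparison whose groups did not overlap. It was 7279, 10120, 5583 and 7329 in knockout 1 to 4, against 14670, 10400, 43800 and 24340 in wild-type 1 to 4. Knockout 2 and wild-type 2 were nearly level. The difference was -1.44 log2 (SE 0.41, limma adjusted p = 0.203). The exact permutation test (two-sided) gave p = 0.0286, which is the lowest value that 70 assignments allow. Groups of 4 arrays that do not overlap always give this value, so it restates the lack of overlap and adds no support. It also counts replicate 4 of each genotype as independent. The dimmer probe, which also lists Amy1, gave 3801, 4790, 3555 and 3899 in knockout 1 to 4, against 6203, 4445, 6950 and 5557 in wild-type 1 to 4. On that probe knockout 2 lay above wild-type 2, so the groups overlapped.

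Among the lipases and their helpers, Cel, the bile-salt activated lipase, gave 116, 97.3, 91.6 and 93.1 in knockout 1 to 4, against 259.6, 83.2, 3626 and 1663 in wild-type 1 to 4. Clps, the colipase that anchors lipase to fat droplets, gave 234.9, 180.4, 222.6 and 207.1 in knockout 1 to 4, against 557.7, 156.8, 10350 and 4859 in wild-type 1 to 4, and its second probe kept that order in the wild-type arrays. Both again had wild-type 2 below every knockout array. Pnliprp1, a lipase-related protein, had 917.7, 916.7, 651.5 and 664 in knockout 1 to 4, against 1173, 1028, 9815 and 5175 in wild-type 1 to 4. Its groups did not overlap (limma adjusted p = 0.304), which by itself fixes the exact permutation p at 0.0286. Pnlip itself was never well above background. Pnliprp2 was well above background in knockout 4, wild-type 3 and wild-type 4 only, at 16.1, 60.5 and 34.9.

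Of the granule and protective proteins, Sycn gave 207.7, 210.3, 254.7 and 234.1 in knockout 1 to 4, against 200.3, 271.1, 1892 and 936.5 in wild-type 1 to 4. Zg16 gave 26.9, 33.9, 45.2 and 30.7 in knockout 1 to 4, against 42.7, 44.6, 575.9 and 283 in wild-type 1 to 4. Wild-type 1 was close to the knockout arrays for both, whereas it lay above every knockout array for Ctrb1, Cela3b, Cpa1, Cpb1, Cel and Clps. Gp2, a granule membrane protein, was well above background in wild-type 1, 3 and 4 alone, at 20.8, 89.4 and 47.4. Reg1, a secreted lectin-like protein, was 27.5 in knockout 1 and 37.6, 388.3 and 166.4 in wild-type 1, 3 and 4, and was not well above background on the other arrays. Rnase1, a ribonuclease, was 27.0 to 37.5 on knockout arrays, against 23.3 to 62.8 on wild-type arrays. Pla2g1b, a phospholipase, showed 84.0, 77.6, 66.1 and 72.2 in knockout 1 to 4, against 35.0, 76.8, 68.1 and 73.5 in wild-type 1 to 4. Its other probe was well above background in wild-type 3 and 4 alone, at 21.3 and 12.6. That dimmer probe lists Pla2g1b, whereas the brighter one used here lists 0 RefSeq transcripts, so the gene's values are uncertain.

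Spink3, a trypsin inhibitor carried with the zymogens, was unlike the enzymes. It was 31720, 27750, 39010 and 34230 in knockout 1 to 4, against 7125, 30600, 30740 and 29820 in wild-type 1 to 4. Wild-type 1 alone was low. Bhlha15, a factor of secretory acinar cells, gave 124.6, 72.9, 230.2 and 193.1 in knockout 1 to 4, against 88.6, 89.0, 126.3 and 118.9 in wild-type 1 to 4, with wild-type 3 inside the knockout range. Ptf1a, which specifies acinar cells, was never well above background.

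The islet hormones were highest on the same pair of arrays. Ins1 was 30.3, 79.3, 24.9 and 43.9 in knockout 1 to 4, against 54.7, 19.7 (not well above background), 1137 and 516.2 in wild-type 1 to 4. Ins2 was 79.6, 106.1, 70.1 and 83.8 in knockout 1 to 4, against 71.2, 70.4, 1017 and 465.9 in wild-type 1 to 4. Knockout 2 led the knockout arrays for both. The insulin probes share no run longer than 5 bases in their best alignment. Gcg, glucagon, is printed on 10 spots per array, with 0 of the 10 well above background on each knockout array and in wild-type 1 and 2. All 10 were so in wild-type 3 (mean 47.6, SD 4.52 over spots) and in wild-type 4 (28.6, SD 6.39). Iapp, the islet amyloid polypeptide, and Ppy, pancreatic polypeptide, were well above background on 0 knockout arrays. Iapp stood at 91.4 and 44.0 in wild-type 3 and 4, and Ppy at 20.1 to 56.2 in wild-type 1, 3 and 4. Pdx1, a factor of beta cells and early pancreas, was never well above background.

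Somatostatin broke the pattern. Over its 10 spots Sst was well above background in knockout 2 (mean 70.2, SD 8.50) and knockout 4 (23.4, SD 5.97) but not in knockout 1 or 3. In the wild-type arrays it was 52.7 (SD 7.90), 123 (SD 5.56) and 61.5 (SD 7.02) in wild-type 1, 3 and 4, and not well above background in wild-type 2. Sst in knockout 2 was thus above wild-type 1 and wild-type 4. For acinar enzymes the place of knockout 2 varied. It was the highest knockout array for Amy2a5, Ctrb1 and Cela1 and the lowest for Cela3b, Cpa1 and Cpb1. The endocrine granule proteins Chga and Chgb and the hormone Pyy, named after their values were seen, were also high in knockout 2 and wild-type 1. Chgb was 29.0, 84.4, 16.7 and 33.5 in knockout 1 to 4, against 165, 34.9, 140.2 and 78.8 in wild-type 1 to 4. Chga gave 42.4, 111, 44.0 and 58.0 in knockout 1 to 4, against 128.2, 67.9, 128.7 and 87.7 in wild-type 1 to 4. Pyy was well above background in knockout 2 and 4 at 45.4 and 25.2, against 64.5, 141.8 and 85.5 in wild-type 1, 3 and 4. Not all other endocrine genes followed. Insm1 was lowest in knockout 2 at 10.8, not well above background there. Ptprn2 was lowest in wild-type 1 at 48.4, and Abcc8 ran only from 105.5 to 121.2 over the 8 arrays. As background, Sst, Chga, Chgb and Pyy are also made by enteroendocrine cells of the gut. Which cells gave this signal was not tested.

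**Figure D2:**
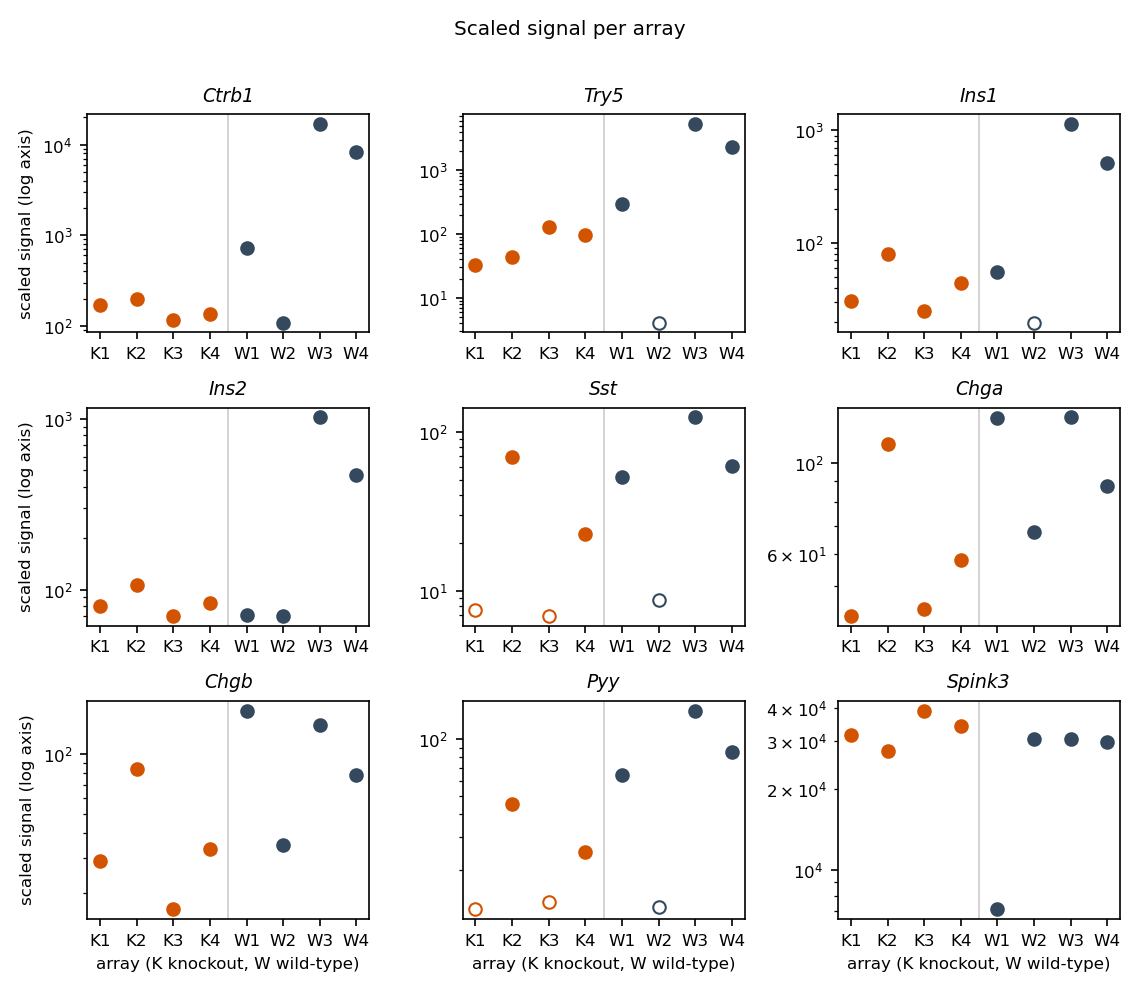
Scaled signal per array on log axes for 9 genes, knockout arrays (K, orange) left of wild-type arrays (W, dark), with open symbols where the value was not well above background. Ctrb1, Try5, Ins1 and Ins2 peak in wild-type 3 and 4, Sst, Chga, Chgb and Pyy are also high in knockout 2 and wild-type 1, and Spink3 is low in wild-type 1 alone.

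The acinar and islet signals stood in a narrow range of proportions between wild-type 4 and wild-type 3. For 18 acinar members, wild-type 3 was over 2-fold above every knockout array. Subtracting the knockout mean, the excess in wild-type 4 was a median of 0.452 of that in wild-type 3, with a range of 0.405 to 0.497 and an SD over genes of 0.0238. For 5 islet members it was 0.432 (0.351 to 0.554), where Gcg and Ppy, both dim, gave the extremes. Ins1 gave 0.432 and Ins2 0.409. Unsubtracted, the ratio had a median of 0.468 (0.428 to 0.576) for these acinar and 0.458 (0.427 to 0.588) for these islet members. Over 23175 genes the unsubtracted ratio had a median of 0.995, with 5% to 95% of genes between 0.781 and 1.30. These members were picked for a high wild-type 3. In the mixture fitted to wild-type 4, wild-type 3 had a weight of 0.503, so the ratio is not independent of that mixture. The 2 lists overlap in their ratio, and no test was made between them since genes of 1 array share its RNA.

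**Figure D3:**
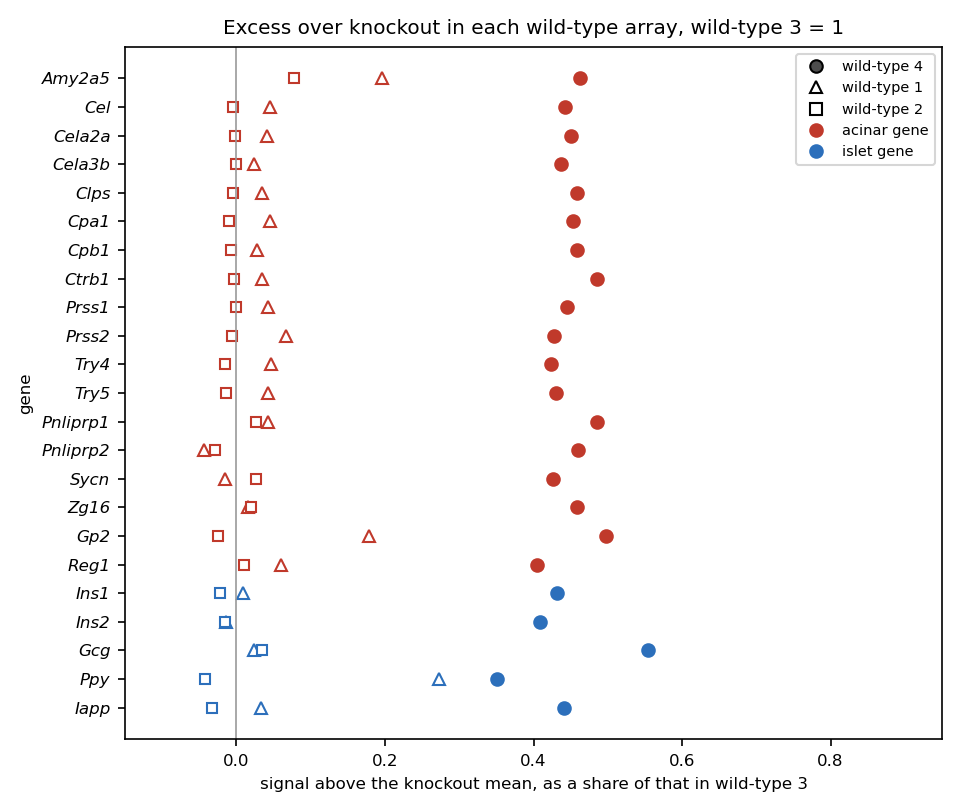
For each member with wild-type 3 over 2-fold above every knockout array, symbols give the signal above the knockout mean in wild-type 4 (filled), wild-type 1 (triangles) and wild-type 2 (squares) as a share of that in wild-type 3. Acinar genes (red) cluster between 0.405 and 0.497 in wild-type 4, islet genes (blue) between 0.351 and 0.554, and wild-type 2 stays near 0.

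In wild-type 1 the excess was a median of 0.0424 of that in wild-type 3 over the same acinar members (-0.0438 to 0.196). These included Sycn, which lay below every knockout array in wild-type 1, and Pnliprp2, which was not well above background there. For the islet members the figure plots single shares, but no median is given. Ins1 and Ins2 in wild-type 1 lay inside the knockout ranges, and Gcg and Iapp were not well above background there. In log2 over the knockout mean, the mean of the acinar members was 0.52 in wild-type 1, -0.42 in wild-type 2, 3.30 in wild-type 3 and 2.55 in wild-type 4. The acinar median in wild-type 2 was -0.08, and Try4 and Try5 were at 3.80 and 4.09 there, not well above background. For the 3 islet members that entered the comparison the mean was 0.61, -0.75, 3.76 and 2.67 in wild-type 1 to 4. Ins1 and Sst were not well above background in wild-type 2. For these islet members knockout 2 stood at 1.12 and the other knockout arrays between -0.75 and 0.18. Wild-type arrays therefore ranged more widely than knockout arrays for both lists.

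No member passed the comparison of knockout with wild-type arrays. At a limma adjusted p under 0.05, 0 of 23 members were called, against 0.217% of all genes (42 lower and 9 higher, 0.179% and 0.0383%). At an unadjusted p under 0.05, 9 members were lower in knockout livers and 1 was higher, which compares with 6.48% and 6.84% of all genes and 13.3% in either direction. Groups did not overlap for 2 members, both lower in knockout (Amy2a5 and Pnliprp1), against 4.33% of genes lower and 4.72% higher. The median difference was -1.92 log2 for the acinar and -1.40 for the islet members, and 0.03 over all genes. Intervals were wide. For Cpb1 the difference was -2.90 (SE 1.40) and for Ins1 -1.98 (SE 1.19), with limma adjusted p = 0.413 and 0.494.

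Leaving out arrays moved these values. Without replicate 4 of both groups 0 members were called, against 0.0255% of genes, and 1 was lower at an unadjusted p under 0.05, against 3.88%. With wild-type 3 and 4 left out, a choice that used their values, 0 were called, against 0.0553% of genes. There, 2 were lower and 1 higher at an unadjusted p under 0.05, against 6.44% and 7.28%. The acinar median was then -0.13 and the islet median 0.25, whose sign turned to -0.07 with no filter on dim probes as well. Ctrb1 differed by -0.89 (limma adjusted p = 0.575) and Ins1 by 0.29 (limma adjusted p = 0.834). The plot of differences sets both fits beside each other.

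**Figure D4:**
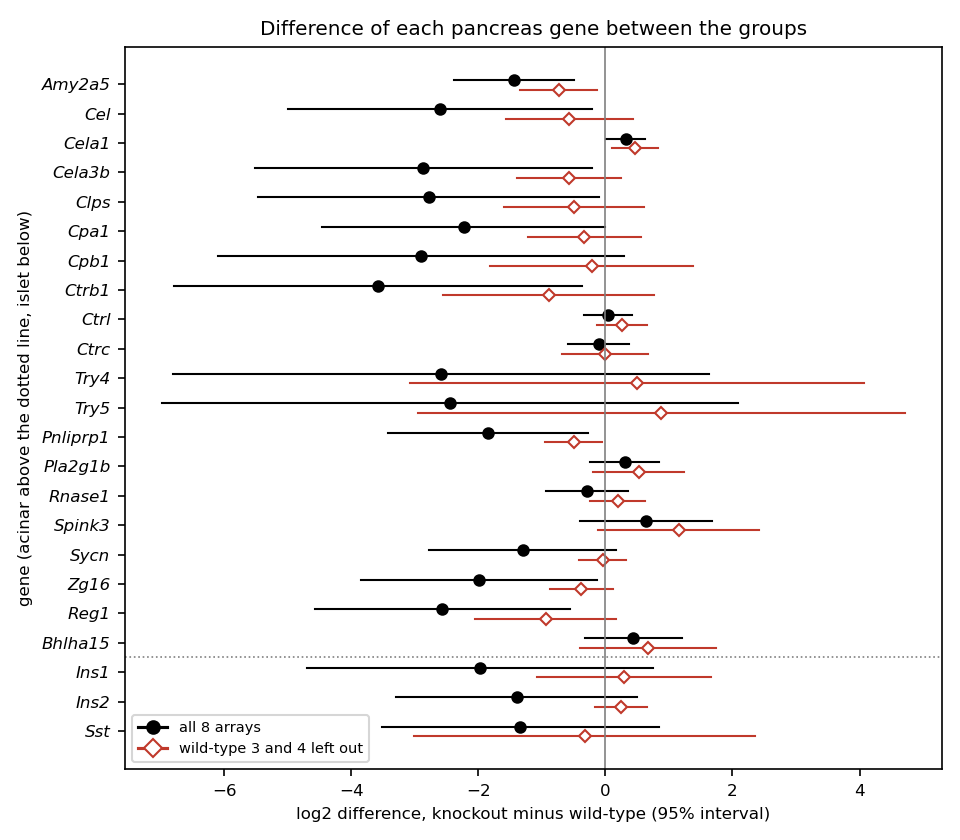
Points give the log2 difference, knockout minus wild-type, of the 23 members in the comparison, with 95% intervals from limma. Filled circles use all 8 arrays and open diamonds leave out wild-type 3 and 4, where most acinar and islet values lie closer to 0.

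Other genes were counted on lists chosen with earlier results known. Of 35 further exocrine genes, 18 entered and 0 were called. Their median difference was -0.26, and 7 had wild-type 3 highest and wild-type 4 second. Cela3a and Klk1 were among them, while Pdia2, a disulfide isomerase of acinar cells, ran from 4879 to 5843 on knockout arrays and from 4056 to 4824 on wild-type arrays. Of 28 further endocrine genes, 14 entered, 0 were called and 3 had that order. Among the duct markers 10 entered, among the gut markers 11 and among those of spleen and mesenchyme 7. Of these 0 were called, and 1 gut marker had that order. Over all genes 0.217% were called and 2.75% had that order, so 0 called does not set lists of this size apart. The gut markers included Fabp2, a fatty acid binding protein, at 604 to 966 on knockout arrays and 1235 to 1983 on wild-type arrays (difference -1.02, limma adjusted p = 0.0801). Pgc and Tff1, stomach genes, were highest in knockout 1, at 92.6 and 858.5. Gkn2, another stomach gene, was well above background in knockout 1 alone, at 62.2. Other stomach genes of the list differed from these. Gkn3 was 166.3 in knockout 1 and highest in wild-type 2 at 233.1, Atp4a was 108.3 in knockout 1 and highest in wild-type 3 at 193.1, and Gkn1 was never well above background. Their part in any result above was not tested.

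The genes most like the mean acinar profile were mostly glandular kallikreins, serine proteases of a tandem family. Among 3821 genes outside the members with a range of at least 1 log2, those with the highest Pearson r included Klk1b26, Cela3a, Gm10334, Klk1b8, Klk1b5, Klk1b24, Klk1, Klk1b3, Gm5771, Klk1b4 and Rbpjl, with r from 0.9956 to 0.9486 over the 8 arrays. Klk1b26 had 47.5, 44.6, 47.2 and 42.1 in knockout 1 to 4, against 71.0, 41.1, 676.9 and 370.3 in wild-type 1 to 4. Klk1b paralogs are closely related, so their probes may share signal. Rbpjl, a partner of Ptf1a in acinar cells, gave 19.9, 21.4, 14.9 and 17.1 in knockout 1 to 4, against 47.7, 13.3, 140.4 and 81.9 in wild-type 1 to 4.

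Most acinar members in the comparison varied together over the arrays, apart from the 6 named beside the heat map. Separately, the RefSeq promoters of all members with an entry were read for 2 letter strings. These were CACCTG, of an E-box, and TTTCCCA, of the RBPJ and RBPJL type, on both strands of the 250 bases before the start (GRCm38.p6). Of 23 acinar members with an entry, 12 held the first (52.2%, against 17.2% of 32851 promoters), 6 held the second (26.1% against 6.82%) and 3 held both (13.0% against 1.17%). Of 6 islet members, 2 held the first and 0 the second. The strings did not sort the acinar members by their pattern over the arrays. Bhlha15, Ctrl and Cela1, which did not follow wild-type 3 and 4, held the first string, and Pla2g1b held neither. Among the other members in the comparison, Cel, Cela3b, Cpa1, Cpb1, Ctrb1, Reg1 and Try4 held at least 1 string. Amy2a5, Pnliprp1, Rnase1 and Sycn held neither. A link between strings and levels was not tested. The promoters shown are those of the 4 acinar and 2 islet members with the widest range over arrays, among members in the comparison with an entry, and matches are in capitals. They lie at chr6:41302022-41302271 (plus) for Try4, chr8:111691011-111691260 (minus) for Ctrb1, chr3:20275734-20275983 (minus) for Cpb1, chr4:137430521-137430770 (minus) for Cela3b, chr19:52264047-52264296 (plus) for Ins1 and chr16:23890845-23891094 (minus) for Sst.
Try4: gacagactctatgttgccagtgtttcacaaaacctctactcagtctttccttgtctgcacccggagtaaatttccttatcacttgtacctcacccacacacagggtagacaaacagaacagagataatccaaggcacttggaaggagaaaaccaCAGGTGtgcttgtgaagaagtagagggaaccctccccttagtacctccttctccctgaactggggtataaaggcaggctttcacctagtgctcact
Ctrb1: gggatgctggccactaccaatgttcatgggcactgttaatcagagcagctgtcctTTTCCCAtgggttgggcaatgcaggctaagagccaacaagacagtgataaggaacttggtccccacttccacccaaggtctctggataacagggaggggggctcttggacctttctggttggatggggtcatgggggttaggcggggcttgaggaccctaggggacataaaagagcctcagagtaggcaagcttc
Cpb1: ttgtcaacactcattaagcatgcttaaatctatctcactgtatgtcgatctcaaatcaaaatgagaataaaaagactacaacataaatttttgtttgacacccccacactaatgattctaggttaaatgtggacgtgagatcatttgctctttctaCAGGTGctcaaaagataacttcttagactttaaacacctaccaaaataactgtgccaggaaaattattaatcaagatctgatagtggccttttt
Cela3b: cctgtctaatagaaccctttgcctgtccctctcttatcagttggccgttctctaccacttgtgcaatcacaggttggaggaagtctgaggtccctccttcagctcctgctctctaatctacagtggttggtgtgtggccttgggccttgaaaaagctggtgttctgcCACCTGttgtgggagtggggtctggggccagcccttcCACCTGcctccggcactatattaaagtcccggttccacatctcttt
Ins1: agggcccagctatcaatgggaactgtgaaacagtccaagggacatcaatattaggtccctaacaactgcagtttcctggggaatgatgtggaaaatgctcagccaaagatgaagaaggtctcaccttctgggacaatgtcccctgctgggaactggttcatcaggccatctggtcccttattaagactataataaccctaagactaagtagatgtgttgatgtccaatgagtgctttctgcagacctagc
Sst: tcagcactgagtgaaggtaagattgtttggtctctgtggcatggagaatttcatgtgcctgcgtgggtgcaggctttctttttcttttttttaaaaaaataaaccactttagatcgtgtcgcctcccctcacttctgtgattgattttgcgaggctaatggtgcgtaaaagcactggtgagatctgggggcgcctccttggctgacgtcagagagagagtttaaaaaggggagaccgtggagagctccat
Try4 and Cpb1 have 1 match to the first string, Cela3b has 2, Ctrb1 has 1 match to the second, and Ins1 and Sst have none. A match is a letter match only.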

How the data were processed

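Liver RNA of 8 samples was labelled with Cy3 and hybridised to 1-colour Agilent arrays, per the labels' protocols. The authors deposited spot intensity read with Agilent Feature Extraction (version 10.10 in the submitters' processing notes) and a value table in log2 units, which follows the log2 median signal of the same arrays. Here, log2 of the processed signal was centred on each array's 75th percentile over non-control spots. Outlier-flagged spots were dropped and the spots of 1 probe averaged. A probe was kept if well above background on at least 4 arrays, and the kept probe with the highest mean stood for its gene. Groups were compared with limma 3.58.1 (R 4.3.3) across all genes, two-sided, with Benjamini-Hochberg adjustment at 0.05, after the script was tested on simulated data. Weighted sums, ratios and motif counts were computed in Python as descriptions. The p-values measure the spread between arrays, and their number limits the precision. The members, lists and rules were chosen with earlier results of these data known. Every member is accounted for, with up to 24 in full, and genes are named from the 12 most like the mean acinar profile, of which 1 is not reported here. Spink3 is named Spink1 in RefSeq.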

Additional observations from a re-analysis of the deposited data

Results flagged for a closer look

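In groups of 4 arrays, 66 sets of values were checked for an array far from the other 3, and 5 stood out. Chance does this in about 1 of 20 groups. On the log2 level scale, Spink3 in wild-type 1 was 3.64, against 5.71 to 5.75 in the other wild-type arrays, and Pla2g1b in wild-type 1 was -4.03, against -3.07 to -2.89. Reg1 in knockout 1 was -4.37, against -5.79 to -5.56 in the other knockout arrays, where it was not well above background. Pnliprp2 in knockout 3 was -6.43, against -5.32 to -5.14, and Gp2 in knockout 3 was -5.39, against -7.67 to -7.30, neither well above background there.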

How the results depend on the processing

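Over 20 settings, 0 members were called in any, and of 449 recomputed member differences 15 took the other sign, 12 of them with wild-type 3 and 4 left out. The acinar median of -1.92 became -0.13 with wild-type 3 and 4 left out, and -0.22 with no filter as well, a setting added after the data were seen. The islet median of -1.40 became 0.25 and -0.07 in these 2 settings. Leaving out 1 array at a time gave acinar medians from -2.42 to -1.19 and islet medians from -2.10 to -0.83, the weakest without wild-type replicate 3. The spleen and mesenchyme median of 0.12 became 0.034 without replicate 4 and -0.0403 with wild-type 3 and 4 left out. The cause was not tested. Genes called lower and higher were 42 and 9, against 117 and 23 with normexp and quantile normalization, 60 and 14 with median scaling, 120 and 21 in the value table, 19 and 0 with no filter, 26 and 3 with detection on at least 1 array, 119 and 30 with a trended robust variance, and 6 and 0 without replicate 4. One array left out gave 14 to 66 lower and 0 to 24 higher. Same-numbered arrays did not deviate together (correlations from -0.11 to 0.07), and with the replicate block 17 genes were lower and 2 higher, with 0 members called and an acinar median of -1.92.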
